A study of Homo sapiens with 23 samples.

Results

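Respiratory chain genes were followed in WM989 A6-G3 human melanoma cells, a line derived by repeated passage through single cells, and in 7 drug-resistant clones expanded from it. The set was chosen by gene symbol: the protein-coding genes of the mitochondrial genome and the nuclear genes of the NDUF, SDH, UQCR, COX4 to COX8 and ATP5 families. Of 189 matching symbols, 91 named pseudogene copies and were dropped, which left 98 genes of the 35438 in the table. The mitochondrial genome contributed 13 of them and the nucleus 85. The 85 include ATP5J2LP, whose newer symbol, ATP5MFP1, is that of a pseudogene copy. Symbols ending in P and a number were to be dropped, but MT-ATP6 and MT-ATP8, which end that way only because of the name of the enzyme, were kept.

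Clones 7, 8 and 9 were colonies that survived vemurafenib, which blocks mutant BRAF, and their medium held the drug at 1 µM. Clones 10, 11, 12 and 13 survived the BRAF inhibitor dabrafenib combined with the MEK inhibitor trametinib, and their medium held 250 nM of the first and 2.5 nM of the second. The reference was the untreated, drug-naive parental line, with no drug added to the medium. All groups are labelled with the genotype WT. Each group had 3 libraries of poly(A) RNA, except clone 11 with 2, so 20 clone libraries stood against 3 untreated libraries. Each clone is 1 expanded colony, and every clone was grown in its drug, so resistance and the presence of drug cannot be told apart. The labels call the libraries biological replicates without saying what separates them, so p-values may measure technical spread.

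The respiratory chain passes electrons through complexes I to IV of the inner mitochondrial membrane and pumps protons, and complex V, the ATP synthase, uses the proton gradient to make ATP. Most subunits are encoded in the nucleus and imported, while the most hydrophobic ones are encoded by the mitochondrial genome, which is transcribed as long RNAs that are later cut apart. Complex II is the exception, with nuclear subunits only. In melanocytes and melanoma, the lineage factor MITF is known to drive PPARGC1A, a coactivator of mitochondrial biogenesis.

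Mitochondrial messages have unusual ends and overlaps that bear on how reads from them are shared out. Some mitochondrial open reading frames end in an incomplete stop codon that the poly(A) tail completes, and others carry a whole one. The last 30 bases of 6 genes, from the GENCODE 29 transcripts and written 5′ to 3′, show both kinds, with the stop codon or the part of it that is encoded in capitals. The first 3 lines are members that fell by more than 1 on the log2 scale in the clones, and the last 3 are members that fell less. Both kinds of ending occur in each of these sets.
MT-CYB: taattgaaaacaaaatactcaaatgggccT
MT-ND4: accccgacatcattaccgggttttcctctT
MT-ND4L: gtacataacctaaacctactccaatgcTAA
MT-ND1: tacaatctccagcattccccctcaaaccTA
MT-ND2: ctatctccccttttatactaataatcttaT
MT-ND5: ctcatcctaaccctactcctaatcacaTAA

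MT-ATP8 with MT-ATP6, and MT-ND4L with MT-ND4, are each translated from 1 RNA with overlapping reading frames. The bases that belong to both genes of a pair are in capitals, with some bases of the upstream gene before them and of the downstream gene after them. MT-ATP8, 207 bases long, and MT-ATP6, 681 bases long, share 46 bases, and MT-ND4L, 297 bases long, and MT-ND4, 1378 bases long, share 7.
MT-ATP8 into MT-ATP6: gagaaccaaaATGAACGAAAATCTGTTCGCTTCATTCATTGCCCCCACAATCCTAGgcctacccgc
MT-ND4L into MT-ND4: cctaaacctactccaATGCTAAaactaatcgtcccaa

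Mitochondrial and nuclear subunit RNAs moved apart in the clones. All 13 mitochondrially encoded genes were lower in the mean of the 7 clones than in untreated cells, while the 77 nuclear genes that could be tested had a median slightly above 0. Summed over genes, the mitochondrial messages averaged 12.0% ± 1.62 of all deposited TPM in the clones (SD of 7 clone means), against 20.9% ± 0.313 in untreated cells (n = 3). TPM is a level per transcript length, scaled to the same total of 1000000 in each library. Nuclear subunits held 1.73% ± 0.143 in the clones and 1.37% ± 0.0465 in untreated cells. As the total is fixed, a drop in the mitochondrial share by itself raises the other shares. After a trimmed-mean scaling between libraries (scaled TPM), nuclear subunits summed to 17135 ± 2409 over the 7 clone means and 15216 ± 1233 in untreated cells. Clone 11, with a mean of 13830, lay below untreated cells. Clones 10 and 9, at 15207 and 15632, were within the SD of untreated cells, and the other clones lay above.

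The ratio of summed mitochondrial to summed nuclear TPM is measured within a library and does not depend on scaling between libraries. Among vemurafenib clones, clone 7 had ratios of 6.91, 5.08 and 7.33, clone 8 had 7.86, 5.92 and 3.03, and clone 9 had 7.58, 6.45 and 7.44. Among dabrafenib/trametinib clones, clone 10 had 8.96, 9.80 and 7.45, clone 11 had 7.35 and 7.55, clone 12 had 5.80, 7.72 and 7.29, and clone 13 had 5.75, 8.67 and 6.84. Untreated cells had 14.5, 15.4 and 15.9. No clone library overlapped the untreated ones. The mean of the 7 clones was 7.06 ± 0.957 (SD of 7 clone means), against 15.3 ± 0.736 in untreated cells (SD, n = 3), a difference of -1.15 on the log2 scale. Vemurafenib clones had means of 5.60 to 7.16 and dabrafenib/trametinib clones 6.94 to 8.74, so the arms overlapped. By complex, the log2 difference of the ratio was -1.33 for complex I, -1.80 for complex III, -1.08 for complex IV and -0.92 for complex V. As the genes were chosen with results known, the ratio is given with no test.

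**Figure D1:**
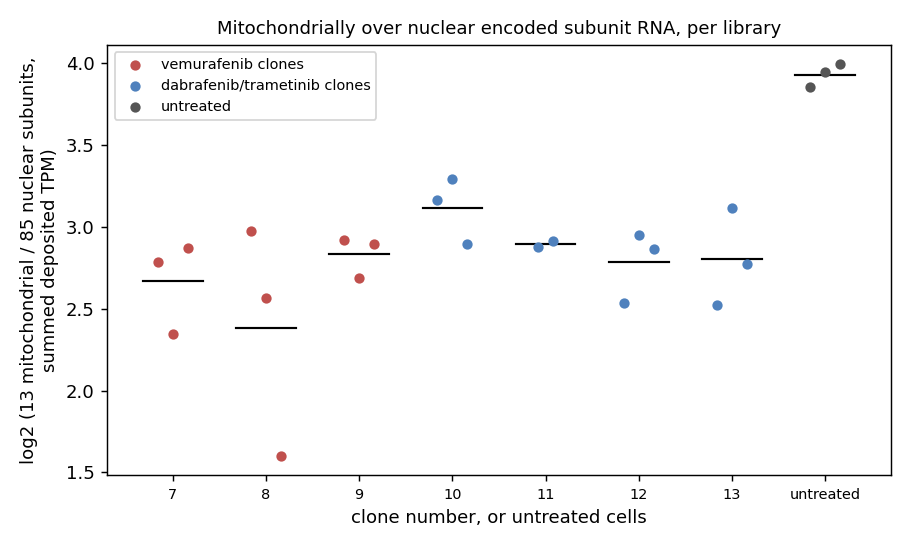
Each point is 1 library: the log2 ratio of the summed TPM of 13 mitochondrial genes to that of 85 nuclear genes (y axis), by clone number or untreated cells (x axis), with lines at group means. Clone libraries lie between 1.60 and 3.29, all below the untreated libraries at 3.86 to 3.99, and clone 8 replicate 3 is the lowest.

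1 library stood apart in mitochondrial share and in scaling. Clone 8 replicate 3 held 6.74% mitochondrial TPM and needed the smallest scaling factor between libraries, 0.747 in a range up to 1.15. Its nuclear subunits summed to 29748 scaled TPM, against 14970 and 17102 in the other libraries of clone 8. The pattern was not confined to clone 8. In every group but clone 10, the library with the smallest scaling factor had the highest nuclear sum. Examples are clone 7 replicate 2 (0.881, 22739), clone 9 replicate 2 (0.913, 18078) and untreated replicate 1 (0.854, 16622). The part of this library property in the nuclear levels was not tested. By another measure, clone 10 replicate 1 had the fewest genes above 0 TPM, 14415, and clone 7 replicate 1 was next with 18671. The untreated libraries had scaling factors of 0.854, 0.921 and 0.928 for replicates 1 to 3. As a check of the labelled cell type, markers of immune, endothelial and epithelial cells, 3 genes each, summed to at most 6.38 TPM per list in any library. Melanocyte markers (MITF, SOX10, PMEL, MLANA, TYR and DCT) were low in the clones: the 6 genes summed to 22.1 to 475 TPM in clone libraries and 10519 to 11115 TPM in untreated libraries, with none at 0 in every library. The part of this lineage difference in the results below was not tested. In bulk poly(A) libraries, fewer mitochondria, less RNA per mitochondrion and a different capture of mitochondrial messages cannot be told apart.

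Among the mitochondrial genes, MT-CYB, the only mitochondrially encoded subunit of complex III, showed the lowest values relative to untreated cells. Levels here and below are scaled TPM, deposited TPM after a trimmed-mean scaling between libraries. For MT-CYB, clone 7 had 4079, 3851 and 4068, clone 8 had 4196, 3615 and 2651, and clone 9 had 3121, 3281 and 3129. Clone 10 had 4811, 4969 and 4188, clone 11 had 3576 and 3299, clone 12 had 3619, 4715 and 4273, and clone 13 had 3735, 4595 and 3570. Untreated cells had 12492, 11678 and 11429. Every clone library was below every untreated one by a wide gap. The log2 fold change, taken on log2(scaled TPM + 1) as all fold changes here, was -1.64 (SE 0.122, limma, Benjamini-Hochberg adjusted p = 8.47e-10), and MT-CYB was called lower in each of the 7 clones.

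A gene was called when its p, adjusted over the 15657 genes in the fit, was under 0.05 and its log2 fold change was at least 1 in size, and "rose" and "fell" below mean that the adjusted p alone was passed. In the mean of the clones, 5 of the 13 mitochondrial genes were called lower and none higher, where 7.92% of all genes tested were called lower. The adjusted p alone was passed by all 13, all in the downward direction, against 27.3% of all genes. These 13 messages are cut from shared precursor RNAs, so they are not independent counts. All 20 clone libraries lay below all 3 untreated libraries for 10 of the 13, against 13.3% of all genes.

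The other 4 called genes belonged to complexes I and IV. MT-ND4, a proton-pumping subunit of complex I, averaged 8354 ± 1292 scaled TPM over the 7 clone means and 19780 ± 745 in untreated cells (SD, n = 3). Its log2 fold change was -1.27 (SE 0.146, limma, adjusted p = 4.42e-07). MT-ND4L, its partner on the same RNA, had clone libraries between 1127 and 15120 and untreated libraries of 14687, 19471 and 22866. Its groups overlapped, and its log2 fold change of -1.36 had the widest error of the 13 (SE 0.400, adjusted p = 0.00691). MT-CO3, a core subunit of cytochrome c oxidase, averaged 9812 ± 1229 in the clones and 21216 ± 2051 in untreated cells (log2 fold change -1.12, SE 0.117). MT-ND3, of complex I, averaged 7065 ± 877 in the clones and 14373 ± 1985 in untreated cells (log2 fold change -1.04, SE 0.152). Without untreated replicate 1, MT-ND3 had -0.92 and was no longer called.

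Of the remaining 8, MT-CO2, MT-ATP6 and MT-ATP8 lay just short of the fold minimum, at -0.99, -0.99 and -0.97. MT-CO1 and MT-CO2 form the catalytic core of cytochrome c oxidase, and MT-ATP6 and MT-ATP8 belong to the membrane part of ATP synthase. MT-CO1 fell by 0.86, MT-ND1 by 0.84 and MT-ND2 by 0.77 on the log2 scale. MT-ND5 and MT-ND6 stood at the weak end. MT-ND5 averaged 2122 ± 478 scaled TPM in the clones and 3309 ± 226 in untreated cells, and clone 10 at 3025 ± 495 overlapped the untreated range of 3054 to 3481 (log2 fold change -0.70, SE 0.227, adjusted p = 0.0132). MT-ND6 averaged 4454 ± 643 in the clones and 6182 ± 1092 in untreated cells (log2 fold change -0.49, SE 0.167, adjusted p = 0.0182), with overlapping groups. MT-ND6 lies on the opposite DNA strand from the other 12. The labels do not say that strand was kept, so its reads and those of antisense RNA cannot be told apart. The libraries are of poly(A) RNA, and how fully MT-ND6 and the other messages were captured was not measured.

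**Figure D2:**
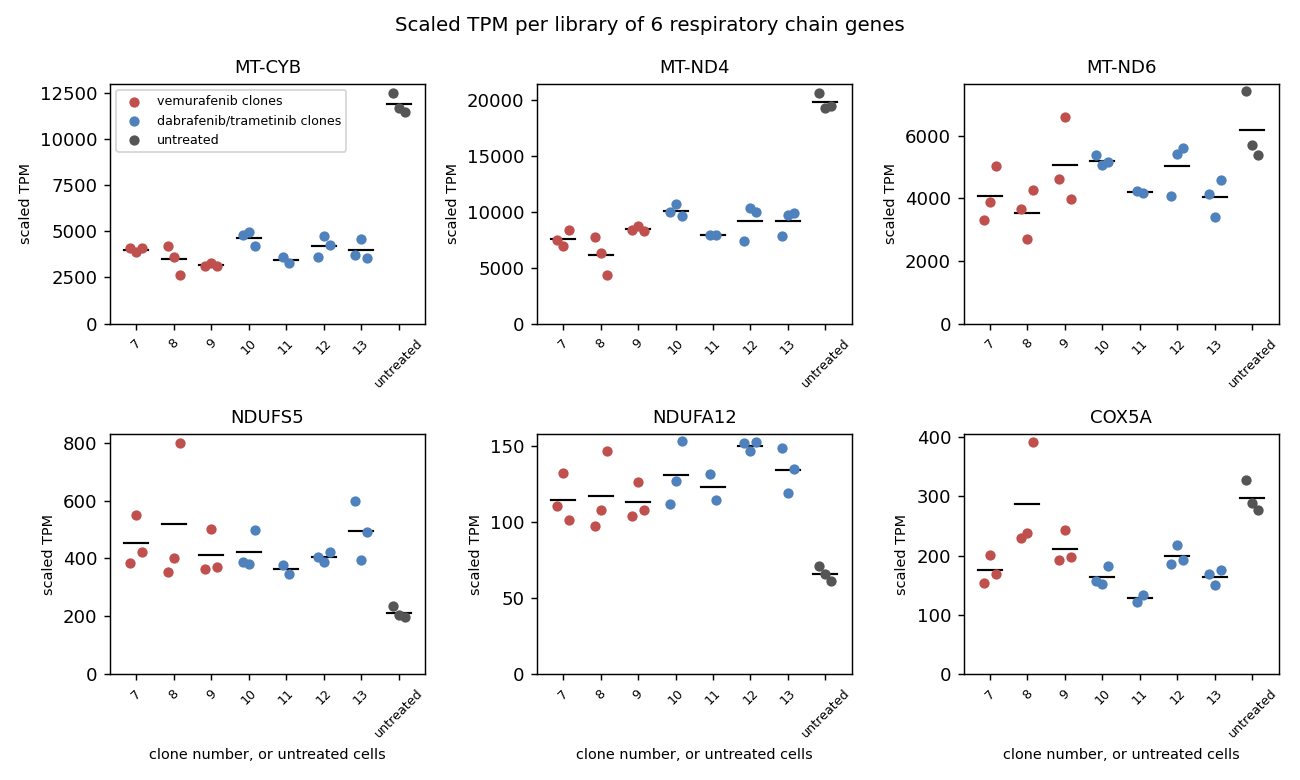
Scaled TPM (y axis, from 0) per library for 6 genes, by clone number or untreated cells (x axis), with lines at group means. MT-CYB and MT-ND4 are lower in all clone libraries, MT-ND6 overlaps, NDUFS5 and NDUFA12 are higher in all clone libraries, and COX5A overlaps through clone 8 replicate 3 at 391 against 278 to 328 in untreated cells.

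Along the heavy-strand map, from MT-ND1 to MT-CYB, the differences grew with position, with MT-ND5 as an exception. MT-ND1, MT-ND2 and MT-CO1 stood between -0.77 and -0.86, the middle genes between -0.97 and -1.12, MT-ND4L and MT-ND4 at -1.36 and -1.27, and the last gene, MT-CYB, at -1.64. Spearman's correlation of log2 fold change with position was -0.57 over the 12 genes of this map and -0.95 over 11 without MT-ND5, which was set aside after its value was seen. Within single clones it was -0.31 to -0.77 over the 12 and -0.61 to -0.86 over those 11. With gene length it was 0.29 over the 12. The points share their libraries and their precursor RNA, so the correlation is a description only.

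**Figure D3:**
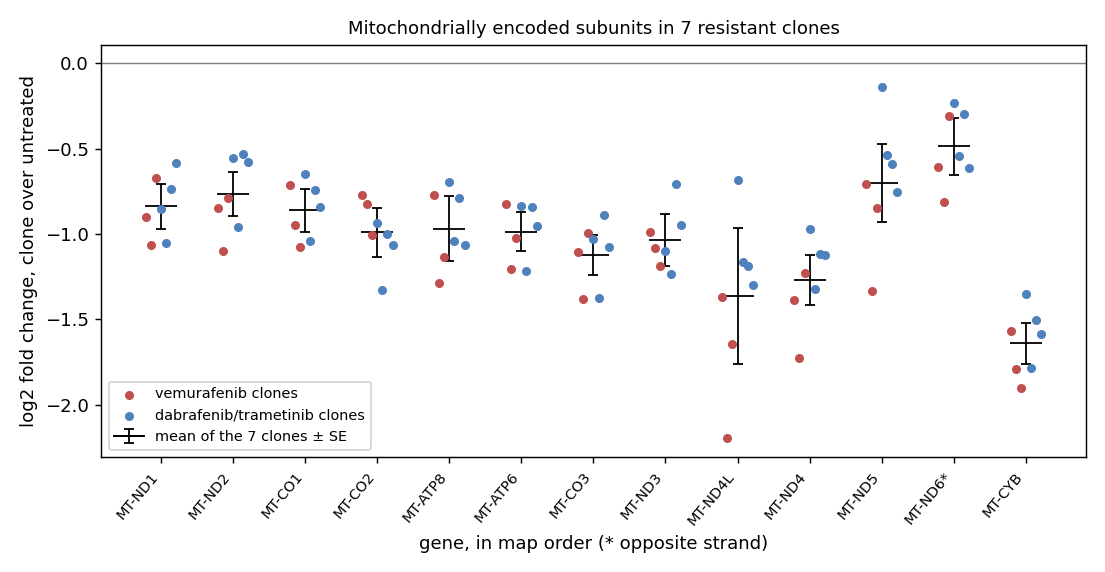
Log2 fold change of each clone over untreated cells (y axis) for the 13 mitochondrial genes in map order (x axis), with points for clones and crosses for the mean of the 7 clones with its SE. All points are below 0, MT-CYB is lowest at -1.64 on average, and MT-ND6 is highest at -0.49.

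Within the bicistronic pairs, the estimated TPM of the partners did not keep a fixed proportion between libraries. The partners share 1 RNA, so a difference in the RNA and a property of the library or of the estimation cannot be told apart. The ratio of MT-ND4L to MT-ND4 TPM ran from 0.259 to 1.41 in clone libraries and was 0.712, 1.01 and 1.18 in untreated cells. MT-ATP8 to MT-ATP6 ran from 0.969 to 1.89 in clone libraries and was 1.30, 1.69 and 1.81 in untreated cells. The 3 lowest libraries were the same for both ratios: clone 8 replicate 3 with 0.259 and 0.969, clone 9 replicate 2 with 0.418 and 1.15, and untreated replicate 1 with 0.712 and 1.30. Clone 13 replicate 3 came close behind in both, with 0.727 and 1.31. Without the 3 lowest libraries, a choice made after the values were seen, 4 mitochondrial genes were called lower in the mean of the clones, and all 13 still fell at the adjusted p alone.

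All 13 mitochondrial genes were below untreated cells in all 7 clones, as were 27.8% of all genes tested. The 7 comparisons share the same 3 untreated libraries. The number called lower was 4 in clone 7, 10 in clone 8, 8 in clone 9, 3 in clone 10, 9 in clone 11, 3 in clone 12 and 6 in clone 13. Of all genes tested, 8.49%, 9.3%, 8.22%, 10.6%, 9.67%, 8.02% and 8.34% were called lower in clones 7 to 13, in that order. Without replicate 3, clone 8 had 6 such calls in place of 10. At the adjusted p alone, 12, 13, 12, 10, 10, 10 and 13 fell in clones 7 to 13, where 22.8%, 23.6%, 21.7%, 25.8%, 21.1%, 22.2% and 22.8% of all genes did. MT-CYB ranged over 0.55 on the log2 scale between clone means. In an F test for differences among the clones, MT-ND4 and MT-ND2 passed the adjusted p, at 0.046 and 0.0447, and no mitochondrial gene passed it with a range of clone means of 1 or more. With TPM as deposited, or scaled to the total outside the mitochondrial genes, MT-ND4 did.

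The nuclear subunits gave another picture. In the mean of the clones, 1 of the 77 tested was called higher, where 10.9% of all genes were, and none was called lower. At the adjusted p alone, 21 rose, against 29.2% of all genes, and 6 fell, against 27.3%. The median log2 fold change over the 77 was 0.19, beside -0.01 over all genes tested. For 11 nuclear genes every clone library lay above every untreated one, against 14.5% of all genes, and for ATP5A1 every one lay below. The 8 genes left untested are ATP5J2LP, ATP5L2, COX4I2, COX6A2, COX6B2, COX7A1, COX7B2 and COX8C, which lie near 0 in these cells.

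In complex I, which takes electrons from NADH, 13 of 37 nuclear genes rose and 1 fell, with a median of 0.25. The called gene was NDUFS5, an accessory subunit. In scaled TPM of NDUFS5, clone 7 had 385, 549 and 421, clone 8 had 354, 403 and 799, and clone 9 had 365, 500 and 370. Clone 10 had 386, 380 and 499, clone 11 had 378 and 347, clone 12 had 406, 388 and 422, and clone 13 had 598, 394 and 490. Untreated cells had 237, 204 and 196. The groups did not overlap, and the log2 fold change was 1.01 (SE 0.177, adjusted p = 7.43e-05); without clone 8 replicate 3 it was 0.97, under the fold minimum.

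NDUFA12, another accessory subunit, averaged 126 ± 13.3 scaled TPM over the clone means and 66.0 ± 5.16 in untreated cells (log2 fold change 0.91, SE 0.112, adjusted p = 9.55e-07). NDUFB7 and NDUFB2, of the membrane arm, rose by 0.82 (SE 0.182) and 0.77 (SE 0.210). NDUFS4, an accessory subunit near the NADH-oxidizing module, rose by 0.75 and NDUFV2, a core subunit of that module, by 0.65. Of the 7 nuclear core subunits of complex I, NDUFV2 was the 1 that rose, and of 30 accessory subunits 12 rose, beside 29.2% of all genes. The difference between core and accessory subunits was not tested. NDUFB8 fell, at -0.32 (SE 0.130, adjusted p = 0.0436). NDUFA4, which the symbol places here although the protein is known as a subunit of cytochrome c oxidase, rose by 0.76 (SE 0.205). It is counted among the 30 accessory subunits and the 12 that rose.

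Complex II, succinate dehydrogenase, summed to 410 scaled TPM over the clones and 401 in untreated cells. Its 2 membrane anchors went opposite ways: SDHD rose by 0.55 (SE 0.0790) and SDHC fell, at -0.44 (SE 0.0969). SDHC averaged 95.4 ± 10.2 scaled TPM in the clones and 128 ± 5.53 in untreated cells. SDHA and SDHB, the catalytic subunits, had 0.085 and 0.022 and did not pass the test. In complex III, 4 of 8 nuclear genes rose, led by UQCRQ at 0.75 (SE 0.212) and UQCR10 at 0.72 (SE 0.162), with UQCRFS1, the Rieske iron-sulfur protein, at 0.58 (SE 0.105). UQCRC2, a core protein, fell, at -0.23.

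In complex IV, 2 of 11 nuclear genes rose, COX6C by 0.77 (SE 0.222) and COX7B by 0.51 (SE 0.132). COX5A, a small subunit on the matrix side, fell the most of all nuclear members, with 190 ± 50.4 scaled TPM in the clones and 298 ± 26.7 in untreated cells (log2 fold change -0.69, SE 0.125, adjusted p = 9.55e-05). COX7C, another subunit of this complex, had -0.25 (SE 0.172, adjusted p = 0.222) and did not pass. The isoforms present were the widely expressed ones. COX4I1 averaged 469 ± 70.4 scaled TPM in clones and 368 ± 29.1 in untreated cells, while COX4I2 reached at most 0.128. COX6A1 averaged 519.9 ± 65.6 in clones and 460.0 ± 44.3 in untreated cells, while COX6A2, known from muscle, reached at most 0.0259. COX7A1, also known from muscle, reached 1.27 at most, beside COX7A2 at 208 ± 30.3 in clones and 188 ± 26.4 in untreated cells.

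In complex V, ATP5SL was the 1 gene of 17 that rose, by 0.30. Its product is known as a factor for complex I and not as a part of ATP synthase. ATP5S, also counted among the 17 by its symbol, is not a subunit of ATP synthase either. ATP5G2 and ATP5A1 fell. ATP5A1, the alpha subunit of the catalytic head, averaged 192 ± 21.6 scaled TPM in the clones and 270 ± 5.99 in untreated cells (log2 fold change -0.50, SE 0.0776, adjusted p = 1.91e-05), and all clone libraries lay below the untreated ones. ATP5G2 is 1 of 3 genes for the same mature c-ring protein. It averaged 446 ± 79.8 scaled TPM in the clones and 668 ± 63.3 in untreated cells (log2 fold change -0.61, SE 0.128). ATP5G1 and ATP5G3, which encode the same protein, had -0.089 and 0.19 and did not pass the test.

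**Figure D4:**
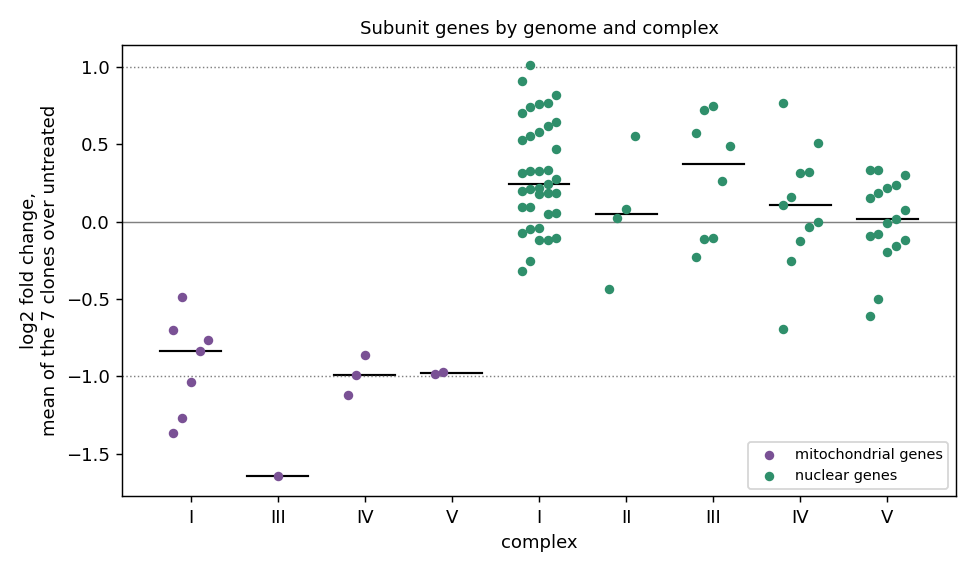
Log2 fold change of the mean of the 7 clones over untreated cells (y axis) for each tested gene, by complex (x axis) and genome (colour), with lines at medians and dotted lines at the fold minimum of 1. The 13 mitochondrial genes lie from -1.64 to -0.49, and the 77 nuclear genes from -0.69 to 1.01. MT-ND6, at -0.49, is the only mitochondrial gene within the nuclear range.

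Promoters of nuclear subunits are known to hold sites for NRF1, for ETS factors such as GABPA and for YY1. RefSeq promoters (GRCh38.p14, from 250 bases before to 50 after the gene start) were matched for 64 of the 77 tested nuclear genes. The core GCGCATGC of NRF1 was in 21.9% of these, against 3.68% of the 27305 genes in the promoter table, on either strand. The ETS core CCGGAAG was in 31.2%, against 12.2%, and the YY1 core AAGATGGCG in 14.1%, against 2.14%. The ERR core TCAAGGTCA was in 1.56%, against 0.432%. A match says only that the letters are there, and each core was searched by itself. The 27305 genes include genes not expressed in these cells, and the share among expressed genes alone was not measured. Promoters of 4 genes that rose or fell are shown as examples, with these letters in capitals. NDUFB7, which rose, has an ETS core, and NDUFS4, which rose, a YY1 core. ATP5G2, which fell, has an NRF1 core read on the other strand. ATP5G2 has 3 promoters, of which 1 is shown, another also holds the NRF1 core and another holds no core. COX5A, which fell, has none. Other genes that rose, such as NDUFA12 and NDUFA4, also have none of the cores.
NDUFB7 (chr19:14572017-14572316, minus strand): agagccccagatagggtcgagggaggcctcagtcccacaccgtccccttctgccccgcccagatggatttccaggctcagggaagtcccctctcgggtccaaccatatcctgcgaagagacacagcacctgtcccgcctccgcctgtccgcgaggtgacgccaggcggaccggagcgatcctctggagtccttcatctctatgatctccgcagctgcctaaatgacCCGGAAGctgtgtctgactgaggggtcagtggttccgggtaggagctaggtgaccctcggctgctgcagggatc
NDUFS4 (chr5:53560389-53560688, plus strand): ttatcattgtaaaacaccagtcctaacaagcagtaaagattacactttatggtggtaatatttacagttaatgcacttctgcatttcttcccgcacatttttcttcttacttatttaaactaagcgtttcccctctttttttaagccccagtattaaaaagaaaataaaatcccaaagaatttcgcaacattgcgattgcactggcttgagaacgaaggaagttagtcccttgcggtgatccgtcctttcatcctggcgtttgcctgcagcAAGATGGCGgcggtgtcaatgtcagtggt
ATP5G2 (chr12:53676034-53676333, minus strand): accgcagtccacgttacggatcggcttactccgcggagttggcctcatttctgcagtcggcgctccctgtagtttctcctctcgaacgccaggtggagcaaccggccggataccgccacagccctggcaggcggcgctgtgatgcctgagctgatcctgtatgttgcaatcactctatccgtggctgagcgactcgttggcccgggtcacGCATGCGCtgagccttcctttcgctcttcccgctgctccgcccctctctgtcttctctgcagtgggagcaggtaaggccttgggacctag
COX5A (chr15:74938024-74938323, minus strand): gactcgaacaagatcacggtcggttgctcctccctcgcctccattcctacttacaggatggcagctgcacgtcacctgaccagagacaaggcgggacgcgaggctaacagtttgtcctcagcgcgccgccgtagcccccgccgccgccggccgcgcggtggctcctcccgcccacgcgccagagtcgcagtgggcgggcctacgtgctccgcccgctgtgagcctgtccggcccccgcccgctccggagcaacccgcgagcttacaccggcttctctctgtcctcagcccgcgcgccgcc

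Over the 77 nuclear genes the median log2 fold change was 0.37, 0.42, 0.040, -0.014, -0.093, 0.28 and 0.22 for clones 7 to 13, in that order. The signs of clones 10 and 11 depend on the scaling, with medians of 0.29 and 0.20 in deposited TPM and 0.18 and 0.041 when scaled to the total outside the mitochondrial genes. At the adjusted p alone, 26, 31, 8, 14, 9, 27 and 17 rose, where 24.6%, 24.6%, 23.8%, 24.7%, 22.4%, 24.3% and 25.7% of all genes did, and 3, 3, 8, 9, 13, 3 and 4 fell, beside the shares of falling genes given above. Clones 7, 8, 12 and 13 called 4, 5, 3 and 2 nuclear genes higher, against 11.1%, 11%, 11.5% and 12.3% of all genes, and clones 9, 10 and 11 called 0, against 11.5%, 11.8% and 11.5%. Clone 11 called 2 lower, COX5A at -1.21 (SE 0.184) and ATP5G2 at -1.01 (SE 0.189), and the other clones called 0. In deposited TPM, clones 10, 11 and 12 called 5, 7 and 12 nuclear genes higher, and clone 11 called 0 lower. In clone 8 the calls were UQCRC1, UQCRQ, NDUFB2, NDUFB7 and NDUFS5. Without replicate 3, clone 8 called 0 nuclear genes higher, and its nuclear median was 0.15. UQCRC1 then had 0.89, NDUFB7 0.91, NDUFS5 0.84, UQCRQ 0.73 and NDUFB2 0.59, all under the fold minimum but past the adjusted p. At the adjusted p alone, 18 nuclear genes rose and 7 fell in clone 8 without that library, in place of 31 and 3.

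The F test among clones called 9 nuclear genes at a range of 1 or more, 25.3% of all genes being called, and 35 nuclear genes passed its adjusted p alone, against 54.1% of all genes. They were SDHD, NDUFB9, ATP5G1, NDUFA6, COX5A, UQCRC1, ATP5D, ATP5L and NDUFS8. SDHD had 48.7 ± 5.48 scaled TPM in clone 11 (n = 2) and 132 ± 16.4 in clone 12 (n = 3), with the other clones between 73.2 and 98.9 on average and untreated cells at 56.7 ± 2.03. Clone 11 was the only clone with SDHD below untreated cells. NDUFA6, an accessory subunit of complex I, was likewise at 67.2 ± 3.48 in clone 11, against means of 113 to 159.7 in the other clones and 74.3 ± 2.68 in untreated cells. NDUFA6 lies on chromosome 22, whose 345 genes had a median log2 fold change of -0.19 in clone 11 and 0.052 to 0.23 in the other clones. For chromosome 11, which holds SDHD, the median over 805 genes was 0.0069 in clone 11 and 0.10 to 0.19 in the others. The part of the chromosome in these values was not tested. UQCRC1, a core protein of complex III, was highest in clone 8 at 228, 247 and 381, lowest in clone 9 at 125, 141 and 121, and had 131, 130 and 124 in untreated cells. Without clone 8 replicate 3, 4 genes passed: SDHD, NDUFB9, NDUFA6 and ATP5L.

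**Figure D5:**
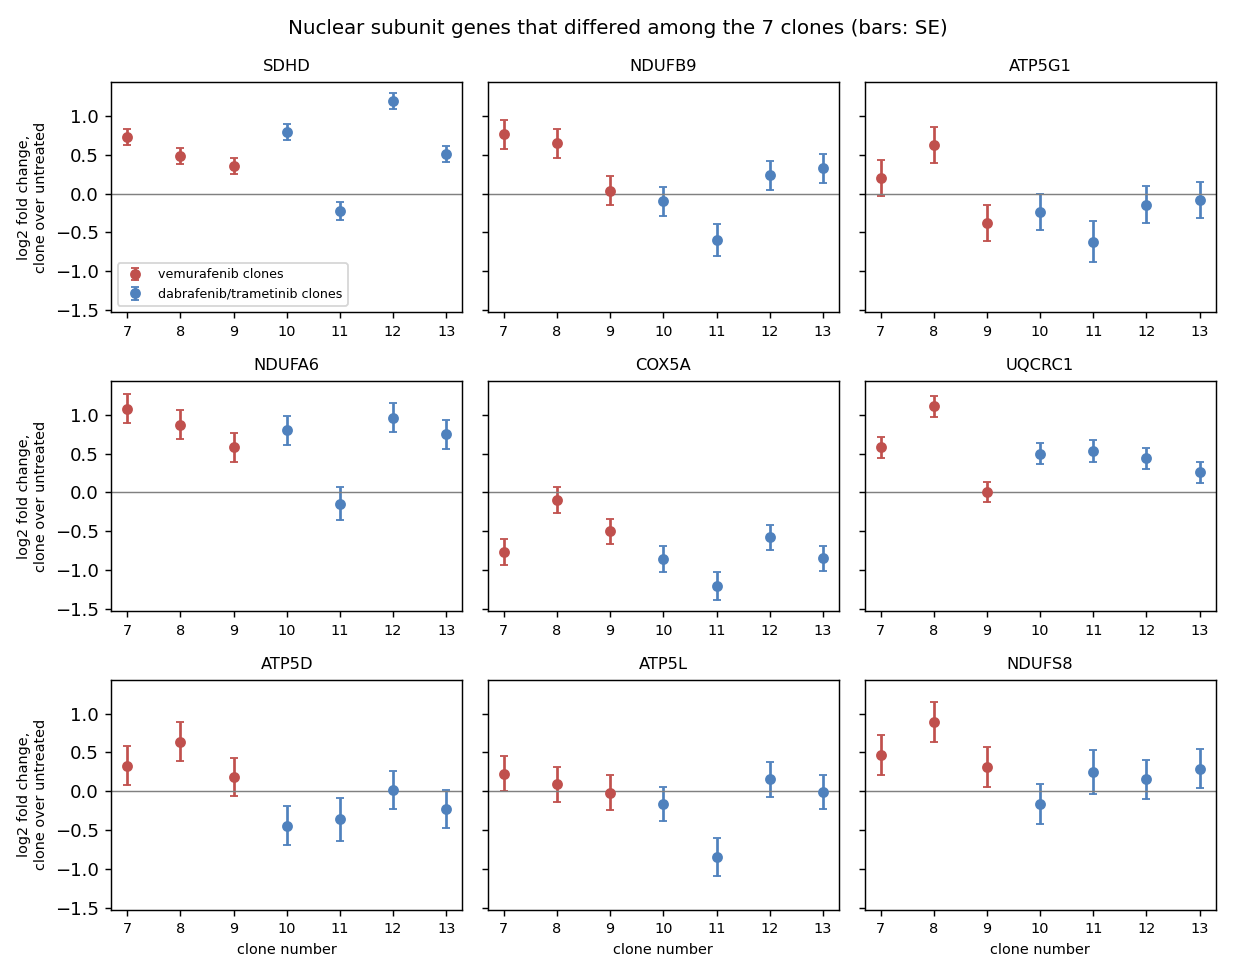
Log2 fold change of each clone over untreated cells (y axis, bars are SE) for the 9 nuclear genes called by the F test, by clone number (x axis). SDHD and NDUFA6 are above 0 in all clones but clone 11, at -0.22 and -0.14, and COX5A is below 0 in all 7.

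Between the drug arms, with 3 vemurafenib clones against 4 dabrafenib/trametinib clones and the clone mean as the unit, limma called no respiratory chain gene, and 3 genes, 0.0192%, of all tested. At an unadjusted p under 0.05 there were 10 nuclear genes and 1 mitochondrial gene, where 14.5% of all genes were. ATP5D, a subunit of the ATP synthase stalk, had 0.64 (SE 0.160, limma, adjusted p = 0.216), vemurafenib minus dabrafenib/trametinib, and 0.50 without clone 8 replicate 3. NDUFA8, an accessory subunit of complex I, had 0.56 (SE 0.145, adjusted p = 0.220), and 0.48 without that library. MT-ND4L had -0.65 (SE 0.272, adjusted p = 0.332), and -0.34 with an unadjusted p of 0.178 without it. Without that library, 5 nuclear genes and 0 mitochondrial genes were at an unadjusted p under 0.05, beside 12.8% of all genes, and none was called.

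Factors around the chain were read from lists of known genes. Of 25 genes of mitochondrial transcription and RNA handling, 3 were called lower and 1 higher in the mean of the clones. These counts and those of the lists that follow stand beside 7.92% of all genes called lower and 10.9% called higher. TOP1MT, the mitochondrial topoisomerase, had -1.58 (adjusted p = 7.86e-11), TFB1M, a methyltransferase of mitochondrial ribosomal RNA, -1.34 (SE 0.118), TBRG4, a FASTK-family RNA-binding protein, -1.10 (SE 0.0718), and REXO2, an exonuclease for short RNAs, 1.07 (SE 0.114). TFAM, which packages the mitochondrial genome and helps start its transcription, fell short of the fold minimum at -0.69 (SE 0.125, adjusted p = 0.000116). So did LRPPRC, which stabilizes mitochondrial messages, at -0.70 (SE 0.204, adjusted p = 0.00671). POLRMT, the mitochondrial RNA polymerase, had 0.078 (SE 0.226) and did not pass. The list's median was -0.14, beside -0.01 over all genes.

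Of 14 genes of mitochondrial DNA maintenance, C10orf2, the Twinkle helicase, was called lower at -1.40 (SE 0.182), as was SLC25A4, an ADP/ATP carrier, at -1.09 (SE 0.159), and TYMP, thymidine phosphorylase, higher at 1.23 (SE 0.188). Of 16 tested regulators of biogenesis, PPARGC1A was called higher at 1.48 (SE 0.299) and in 6 of 7 clones, clone 11 standing at 0.47. HIF1A, the hypoxia factor, was called higher at 1.18 (SE 0.226) and MYC lower at -1.64 (SE 0.153). Among 41 assembly factors, UQCC2, for complex III, was the only call, higher at 1.33 (SE 0.214). None of 11 subunits that the symbols miss was called, CYC1, cytochrome c1, standing at -0.23 (SE 0.110).

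Of 18 genes of the TCA cycle, IDH2 was called higher at 1.51 (SE 0.0987), and IDH3A at -1.05 (SE 0.136) lower. PC, pyruvate carboxylase, was also called lower, at the fold minimum itself (SE 0.219, adjusted p = 0.000682). The call of IDH3A was lost without untreated replicate 2, at -0.995, and that of PC without any of 12 single libraries, at -0.935 to -0.997. Among 21 genes of mitochondrial import, channels and chaperones, TIMM50, of the inner membrane import channel, was the only call, lower at -1.17 (SE 0.125), with a median of -0.23 for the list. At the adjusted p alone, 2 of these 21 rose and 10 fell, beside 29.2% and 27.3% of all genes. Of 76 mitochondrial ribosomal proteins, MRPL47 was the only call, higher at 1.11 (SE 0.189), and 26 rose and 14 fell at the adjusted p alone, with a median of 0.15, beside 29.2% and 27.3% of all genes.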

How the data were processed

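Paired-end poly(A) RNA-seq of 23 libraries was used, per the labels' protocols. The authors deposited 1 value per gene and library; the values were read as TPM because each deposited column sums to 1000000, although the table is named as counts. kallisto and hg19 are named in the submitters' processing notes with no version. No source used here gives the annotation or the step from transcripts to genes. Depth is not kept in TPM, so it is unknown and no counting interval is given. Mitochondrial ribosomal and transfer RNAs were not analysed here.

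Libraries were brought to 1 scale with a trimmed mean of log2 ratios (30% of ratios and 5% of levels trimmed) over 10822 genes with TPM of at least 1 in every library. Testing covered the 15657 genes that reached a TPM of 1 in 2 or more libraries, as log2(scaled TPM + 1) with limma 3.58.1 in R 4.3.3 (lmFit, eBayes with trend), 8 groups in 1 fit, and Benjamini-Hochberg adjustment; the scale understates changes of low genes. Contrasts were the mean of the 7 clones and each clone against untreated cells, an F test among clones, and the arms on 7 clone means. With deposited TPM, the median of all genes moved from -0.01 to 0.14 in the clones. Same-numbered libraries showed little shared deviation, with a median correlation of 0.05 over 77 pairs, 32 of them over 0.1. Pairs of different number had a median of -0.01 over 154 pairs, 55 of them over 0.1. No replicate block was used in the main fit. The script was tested on simulated data.

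The genes, lists and alternatives were chosen with earlier results of these data known. Genes named are the 13 mitochondrial ones, nuclear members called, the 6 largest rises and 6 largest falls, those called by the F test, isoform genes, and calls of each list (at most 4), with PPARGC1A, TFAM, POLRMT, LRPPRC and CYC1. NDUFS4, NDUFV2, UQCRQ, UQCR10, UQCRFS1, UQCRC2, SDHA, SDHB, ATP5SL and NDUFA8 were added after their values were seen. 8 nuclear members did not pass the filter. Alternatives were other scalings, a pseudocount of 0.1, no filter, the replicate block, nuclear copies added, no fold minimum and each library left out.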

Additional observations from a re-analysis of the deposited data

Results flagged for a closer look

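9 nuclear genes differed between clones by an F test (limma, adjusted p under 0.05) with a range of clone means of at least 1 on the log2 scale, where 25.3% of all genes did. The ranges were 1.42 for SDHD, 1.36 for NDUFB9, 1.25 for ATP5G1 and 1.23 for NDUFA6. They were 1.11 for COX5A, 1.11 for UQCRC1, 1.08 for ATP5D, 1.07 for ATP5L and 1.06 for NDUFS8. Clone 11 was the lowest clone for SDHD, NDUFB9, ATP5G1, NDUFA6, COX5A and ATP5L, clone 9 for UQCRC1, and clone 10 for ATP5D and NDUFS8. Clone 8 was the highest for ATP5G1, COX5A, UQCRC1, ATP5D and NDUFS8, and of these 5 none passed without its replicate 3.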

How the results depend on the processing

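All 13 mitochondrial genes were below untreated cells on average in every setting of the fit across all genes, and 11 to 13 passed the adjusted p alone under the 3 scalings. With TPM as deposited, 3 mitochondrial genes were called lower and 3 nuclear genes higher in the mean of the clones, and 47 nuclear genes rose at the adjusted p alone. Over single clones, deposited TPM gave 24 mitochondrial calls lower, 38 nuclear calls higher and 0 lower, in place of 43, 14 and 2, and 4 genes that differed among clones in place of 9, namely NDUFA6, NDUFB9 and SDHD, which the 9 include, and MT-ND4, which they do not. Scaled to the total outside the mitochondrial genes, 33 nuclear genes rose, 1 nuclear call in a single clone was lower, and the same 4 genes differed among clones. With no fold minimum, 13 mitochondrial genes were lower, 21 nuclear genes higher and 6 lower, single clones gave 80, 132 and 43 such calls, and 37 genes differed among clones. Without the 3 libraries of low MT-ND4L to MT-ND4 ratio, 1 nuclear call in a single clone was lower and 4 genes differed among clones. The cause was not tested.

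Each library left out in turn gave 5 to 7 mitochondrial genes called lower in the mean of the clones, 0 or 1 nuclear gene higher, 20 to 26 and 4 to 9 nuclear genes up and down at the adjusted p alone, 1 or 2 nuclear calls lower and 10 to 21 higher in single clones, and 4 to 17 genes that differed among clones, with 4 without clone 8 replicate 3 and 17 without clone 8 replicate 1. Mitochondrial calls lower in single clones numbered 34 to 45, with 34 without untreated replicate 1. In the mean of the clones, 12 or 13 mitochondrial genes fell at the adjusted p alone. NDUFS5 lost its call without any 1 of 7 libraries, and MT-ND3 without untreated replicate 1. The log2 ratio difference stayed between -1.19 and -1.09, was -1.30 as a median of members, -1.15 with nuclear copies added and -1.15 without MT-ATP6 and MT-ATP8. Deposited TPM turned the sign of ATP5G1 to 0.090, ATP5L to 0.098, COX6B1 to 0.14 and COX7A2L to 0.055. With single libraries left out, ATP5D ran from -0.059 to 0.12, ATP5L from -0.15 to 0.023 and COX6B1 from -0.082 to 0.052, each across 0. None of these 5 genes passed the test of the mean of the clones as reported, while ATP5G1, ATP5L and ATP5D were called by the F test among clones. With the replicate number as a block, 5 mitochondrial genes were called lower, 1 nuclear gene higher and 0 lower, single clones gave 42, 14 and 2 calls, and 8 genes differed among clones; 8 of the 23 libraries correlated best with a library of their own number. The depth behind each value is unknown.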

Other observations

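Annotated nuclear copies of mitochondrial genes took up little of the signal outside 3 of them. MTATP6P1 had 595 to 1526 deposited TPM in clone libraries and 1828 to 2062 in untreated libraries, MTND2P28 had 23.4 to 183 in clone libraries and 190 to 216 in untreated libraries, and MTND1P23 had 22.5 to 84.0 in clone libraries and 53.2 to 59.9 in untreated libraries. The other 172 copies summed to at most 10.7 TPM in any library.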
